A study of Mus musculus with 30 samples.

Results

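A group of 10 genes that low oxygen or a high demand for glucose is known to switch on was followed in the blood cells of mice given oleic acid. They are Vegfa, Hk2, Slc2a1, Ldha, Adm, Ndrg1, P4ha1, Pgk1, Bnip3 and Egln3, and they were taken by name from the array, with every non-control probe that carries the name. The 10 genes have 17 probes of the 55681 on the array, and all 10 passed the filter on dim probes among the 25169 genes or unnamed transcripts tested.

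The RNA came from peripheral blood mononuclear cells (PBMC), a fraction made up mainly of lymphocytes with some monocytes, of 30 female C57BL/6 mice aged 6 weeks, with 1 array per mouse. All mice were anaesthetised with xylazine and ketamine and received 200 µl into the tail vein. Treatment was with oleic acid (OA), which is used in animals to bring on acute lung injury, at 1.2 µl/g body weight, and the control mice received physiological serum. Blood was taken after 1, 1.5, 3, 4, 18 or 24 h, giving 12 groups. Every OA group had 3 mice except that of 4 h with 2, and the serum groups had 3 mice at 1 h and at 1.5 h, 1 mouse at 4 h and 2 mice at each of the remaining times. Cells were collected over Ficoll, so each array is a bulk measurement in which fewer cells of a type and less RNA per cell cannot be told apart.

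When oxygen is scarce, the prolyl hydroxylases that mark the hypoxia-inducible factor (HIF) alpha subunits for destruction slow down, and HIF with its partner ARNT binds DNA at a short core motif, ACGTG or GCGTG. Its targets bring glucose into the cell (Slc2a1, the glucose transporter GLUT1), trap it (Hk2, hexokinase 2), carry it through glycolysis (Pgk1, phosphoglycerate kinase 1) and turn pyruvate into lactate (Ldha, lactate dehydrogenase A). Others are secreted (Vegfa, the vascular growth factor, and Adm, the vasodilator peptide adrenomedullin), remodel collagen (P4ha1, a collagen prolyl hydroxylase), act at mitochondria (Bnip3, a mitophagy receptor), feed back on HIF (Egln3, the hydroxylase PHD3) or belong to the stress response (Ndrg1). Neutrophils, monocytes and activated lymphocytes rely heavily on glycolysis, so many of these genes are also on in blood cells at normal oxygen.

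The core motif was looked for in the 250 bases before each start in RefSeq's mouse promoters (GRCm38.p6). The genes were chosen by name as known targets, so their share with the motif describes that choice and is not a result of the arrays. The letters ACGTG, read on either strand and counting overlapping matches, occurred in 8 of the 9 members that the promoter table holds, at any listed start, against 18.5% of the 27025 genes in that table. The member without a match was Adm, which holds GCGTG. That second form occurred before 6 of the 11 member starts and before 28.2% of all 32851 starts. Counted per start, ACGTG lay before 8 of the 11 member starts and 16.6% of all starts. Vegfa had no match before its first listed start, and counts only through a match 211 bases before its second. Ldha had matches before its first listed start and none before its second. The 5 stretches of 60 bases around the match nearest to the start are for the glucose and lactate genes and for Bnip3, and have every ACGTG or its reverse complement CACGT in capitals. They show where ACGTG lies in 4 genes of glucose use and in Bnip3, and the form GCGTG or its reverse complement CACGC, which the stretches of Slc2a1 and Bnip3 hold, is not marked. Adm has no ACGTG and is not shown. Each reads 5′ to 3′ on the strand of the gene.
Slc2a1 (chr4:119108681-119108740, plus strand): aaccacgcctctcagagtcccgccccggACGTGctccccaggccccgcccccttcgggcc
Hk2 (chr6:82774475-82774534, minus strand): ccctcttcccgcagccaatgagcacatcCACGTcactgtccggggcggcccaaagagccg
Pgk1 (chrX:106186941-106187000, plus strand): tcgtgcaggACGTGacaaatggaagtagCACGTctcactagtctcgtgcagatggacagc
Ldha (chr7:46845742-46845801, plus strand): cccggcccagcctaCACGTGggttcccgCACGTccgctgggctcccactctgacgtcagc
Bnip3 (chr7:138909582-138909641, minus strand): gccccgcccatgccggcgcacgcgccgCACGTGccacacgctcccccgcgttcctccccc
In Slc2a1 the match began 36 bases before the start, and in Hk2 52 bases before it. Ldha and Bnip3 carry the palindrome CACGTG, which reads the same on both strands and so counts as 2 overlapping matches, and Ldha holds 5 matches in the whole 250 bases. Pgk1 holds 2 matches, 150 and 131 bases before its start. Ndrg1 was not matched.

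All levels below are base-2 logarithms of the background-corrected signal, relative to the 75th percentile of the same array, so 0 is that percentile and 1 unit is a doubling. On the 30 arrays that percentile lay between 40.2 and 152 intensity units, and Agilent's test of a spot against its local background called between 35.4% and 65.1% of the probes well above it. Arrays correlated with each other at 0.715 to 0.982, and 3 stood apart from the rest, with median correlations of 0.797 for serum 24 h replicate 1, 0.835 for OA 4 h replicate 2 and 0.885 for serum 1.5 h replicate 3. The arrays came on 5 slides scanned on 2 days. One slide, the whole second scan day, held 5 OA arrays and no serum array. Precision is limited by how few arrays there are, and at 4 h the lone serum array is taken to have the spread of the remaining groups. Neutrophil and platelet markers were measured above background in every group, beside those of monocytes, and so were the red cell markers except Klf1, which was not well above background in 8 of the 12 groups.

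Slc2a1, Ldha, Ndrg1, Pgk1 and Bnip3 were well above background on all 30 arrays. Hk2 and P4ha1 were so on 22, Egln3 on 19, Adm on 14 and Vegfa on 11, so the values of these 5 genes are often close to the detection limit. Slc2a1 ranged from 0.12 to 2.99 over the arrays with a median of 1.73, Ldha from 4.77 to 7.0 with a median of 6.41, and Bnip3 from 0.62 to 3.16 with a median of 2.22. Vegfa ranged from -4.82 to -0.88 and Egln3 from -4.01 to -0.26. The lowest values of Slc2a1, Pgk1, Bnip3 and Egln3 were all on OA 4 h replicate 2, and that of Ldha was on serum 24 h replicate 1, which are 2 of the arrays that stood apart.

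**Figure D1:**
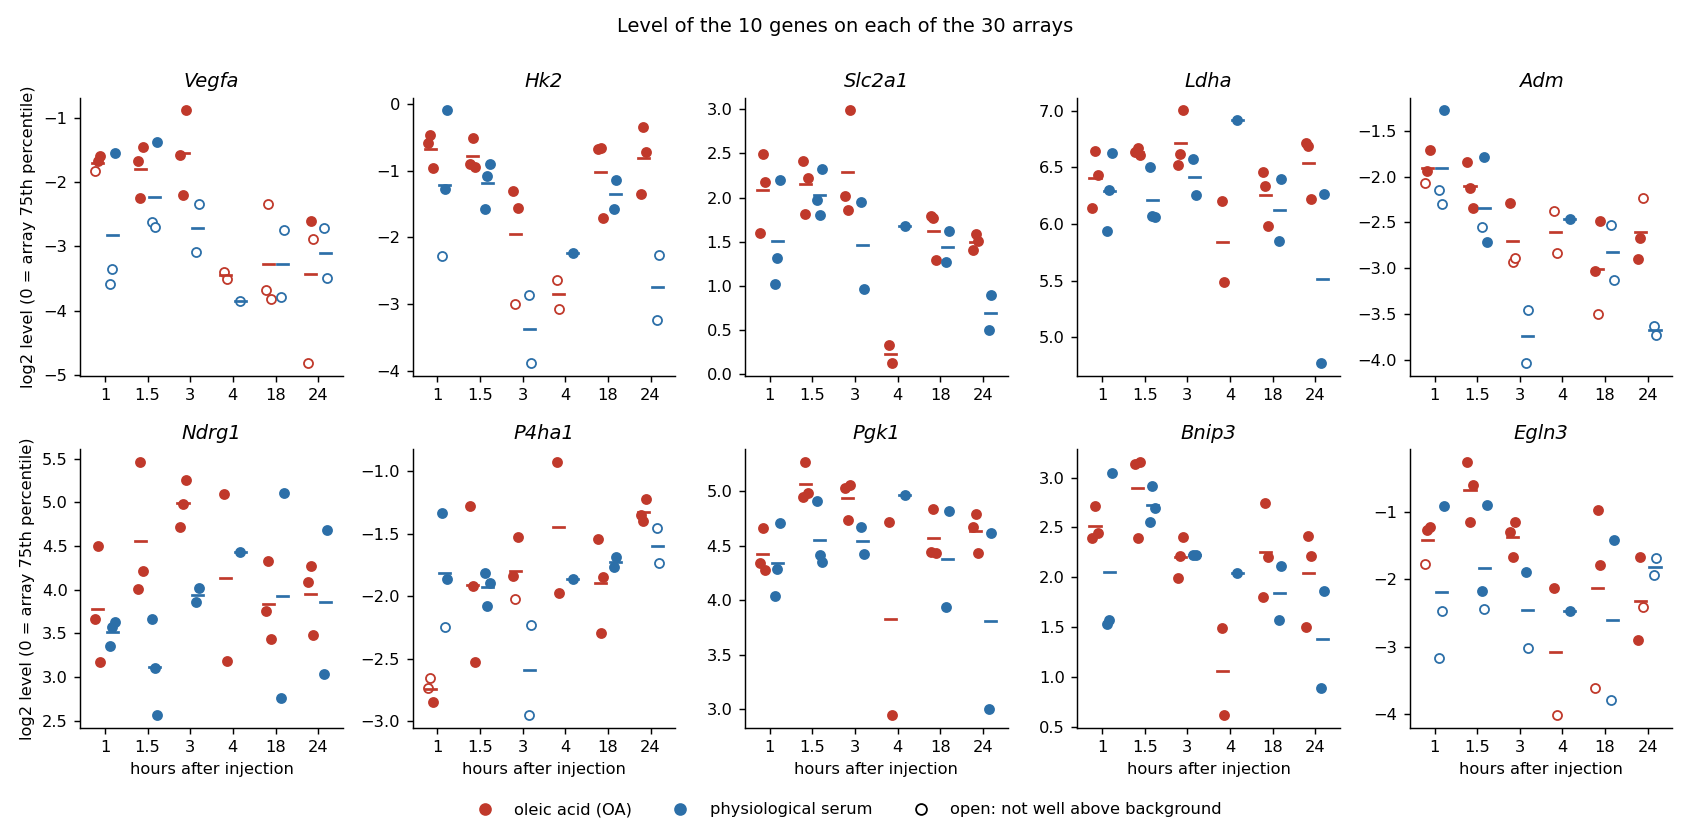
Log2 level of each of the 10 genes on every array, relative to the array's 75th percentile, against hours after injection. Red points are OA mice and blue points serum mice, open points were not well above background, and bars are group means; Hk2 and Adm are higher in all 3 OA mice than in both serum mice at 24 h, and Slc2a1 is lowest in the 2 OA mice at 4 h.

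The main question of the design is whether OA changed expression at each time after injection. In limma's 12-group model with Benjamini-Hochberg adjustment over all genes, a call means an adjusted p under 0.05. None of the 10 genes was called at 1, 1.5, 3, 4 or 18 h, where 0% of all genes were called. At 24 h, Hk2, Ldha and Adm were called, all 3 higher in OA, where 29.7% of all genes were called and 13.1% were called higher in OA. The 3 in 10 called is near the share of all genes called in either direction and above the share called higher, and 3 genes are too few to read a difference from it.

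The direction of the differences varied with time. The median OA minus serum difference of the 10 genes stood at 0.36 after 1 h and 0.41 after 1.5 h, and was 0.94 after 3 h. It was -0.61 after 4 h, 0.15 after 18 h and 0.74 after 24 h, all on the log2 scale. Over all genes tested the medians were -0.09, 0.05, 0.09, -0.16, -0.07 and -0.03 at the same times. Differences were above 0 for 9, 10, 9, 2, 6 and 8 of the 10 genes. Within slides that held both treatments the median was 0.05 at 1 h, 0.52 and 0.33 on the 2 slides at 1.5 h and 0.44 at 3 h. It was -1.33 at 4 h and 0.09 at 18 h, and no slide held both treatments at 24 h. Each of these values set 1 OA array against 1 serum array, or against 2 at 1 h. The OA array in the 4 h value was OA 4 h replicate 2, which stood apart. The 4 h median of all arrays, -0.61, also depends on that array, and without OA 4 h replicate 2 it was -0.08.

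**Figure D2:**
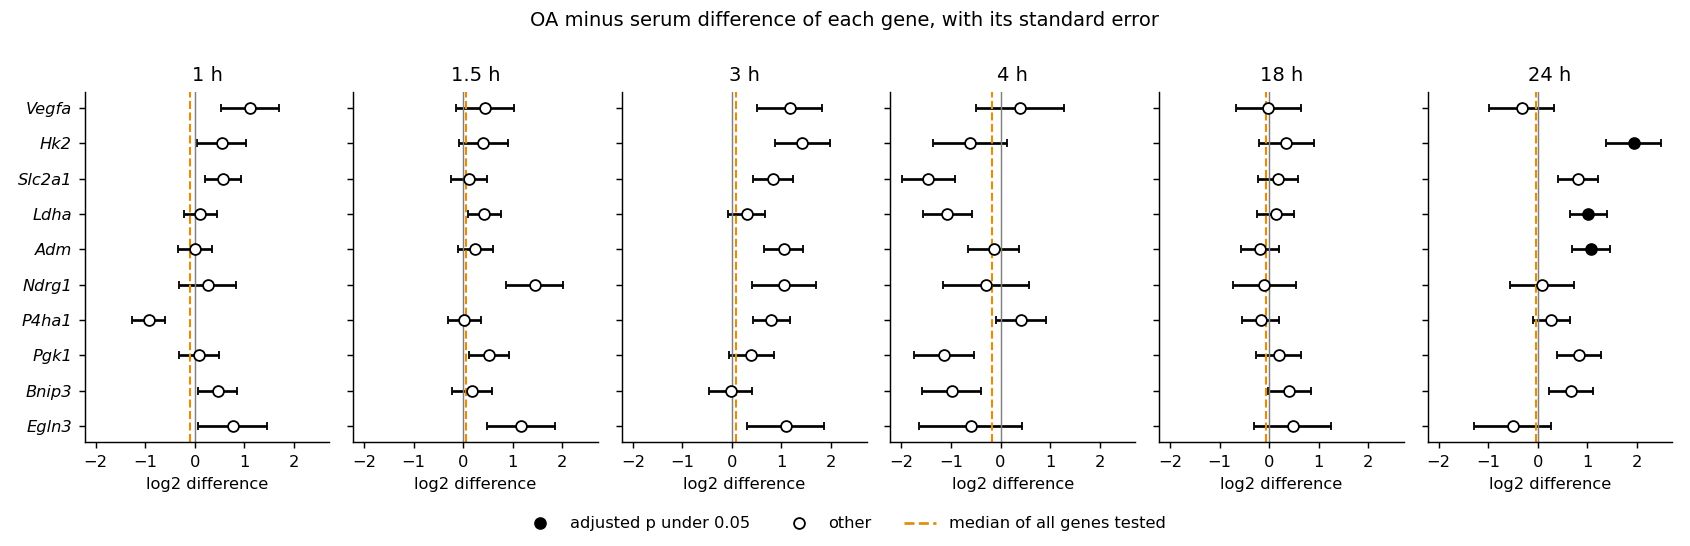
OA minus serum difference in log2 level (points) with its standard error (bars) for each gene at 6 times; filled points had an adjusted p under 0.05 and the dashed line is the median of all genes tested. The only filled points are Hk2, Ldha and Adm at 24 h, and most points lie right of 0 at 1.5, 3 and 24 h and left of it at 4 h.

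At 24 h Hk2, which phosphorylates glucose and so holds it in the cell, was higher in OA blood. Its levels were -1.36, -0.35 and -0.72 in the 3 OA mice, against -3.23 and -2.26 in the 2 serum mice. Every OA mouse was above both serum mice, where the probe was not well above background. The fitted difference was 1.94 ± 0.56 (SE, adjusted p = 0.0224 in limma). With the serum group at its detection bound Hk2 was at least 1.58-fold higher in OA. Its 60-base probe lies at chr6:82675056-82675115 in mm9.

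Ldha, the enzyme that ends glycolysis in lactate, had levels of 6.72, 6.69 and 6.22 in OA mice at 24 h, against 4.77 and 6.26 in serum mice. The groups overlapped, and 1 serum mouse was as high as the lowest OA mouse. The difference was 1.02 ± 0.37 (SE, adjusted p = 0.0441 in limma). Adm, a vasodilator peptide that many stressed cells release, had levels of -2.90, -2.67 and -2.23 in OA mice, against -3.63 and -3.72 in serum mice. All 3 OA mice were above both serum mice, but the probe was well above background in 2 OA mice and in no serum mouse, and its bound gives no fold above 1. The fitted difference was 1.07 ± 0.39 (SE, adjusted p = 0.0429 in limma), and its sign turned to -0.21 (adjusted p = 0.468) after another background correction, normexp, under which Hk2 was also no longer called, at 0.27 (adjusted p = 0.284). Scaling to the median of the probes detected on every array moved the median of all genes at 24 h by over 0.1, to -0.58, and left Hk2 at 1.39 (adjusted p = 0.047), Ldha at 0.47 (adjusted p = 0.11) and Adm at 0.52 (adjusted p = 0.309).

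The 3 calls depended on single arrays. Without serum 24 h replicate 1, one of those that stood apart, no member was called, and Hk2 had a difference of 1.45 (adjusted p = 0.512), Ldha 0.28 (adjusted p = 0.817) and Adm 1.12 (adjusted p = 0.496). Over all genes 38 were then called, against 7483 with all arrays. Leaving out OA 24 h replicate 1 or replicate 2 also left no member called, with 138 and 3496 calls over all genes. Without OA 24 h replicate 3 only Hk2 of the members was called (adjusted p = 0.0458), with 4145 calls. Without serum 24 h replicate 2 Hk2, Ldha and Pgk1 were called (adjusted p = 0.00843, 0.00232 and 0.0103), with 12952 calls. With slide as a fixed block the 24 h differences were 1.42 for Hk2, 0.81 for Ldha and 1.31 for Adm, none of them called (adjusted p = 0.227, 0.280 and 0.158), and 9 genes of all those tested were called.

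**Figure D3:**
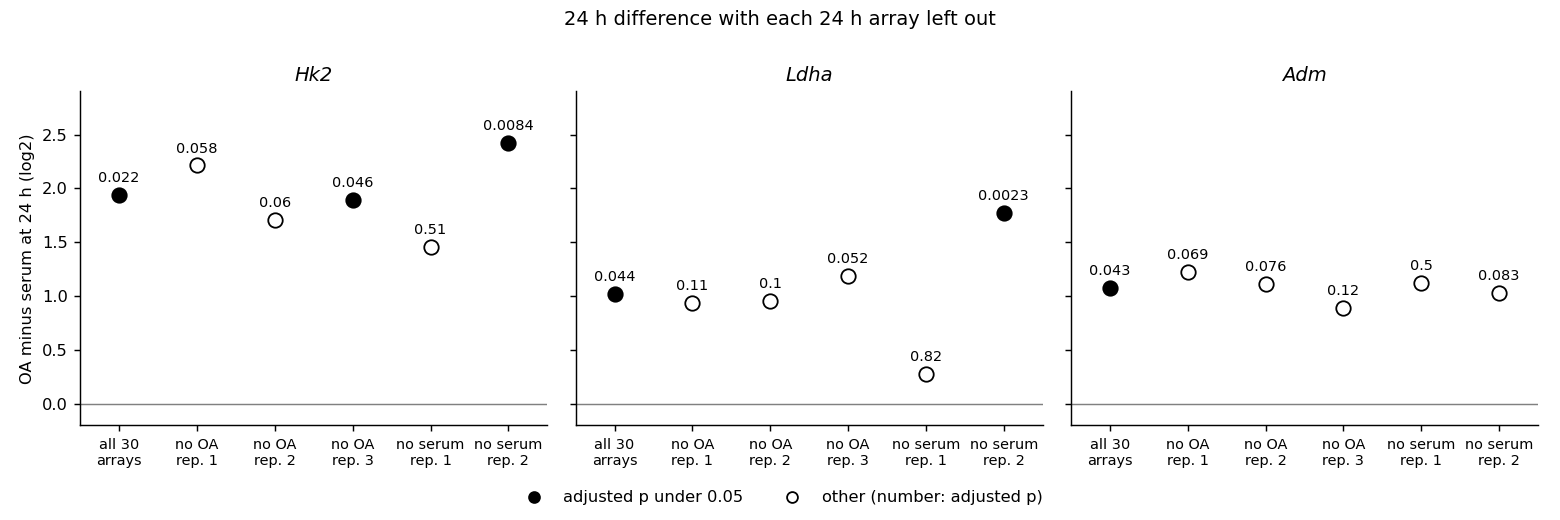
OA minus serum difference at 24 h (log2) for Hk2, Ldha and Adm with all 30 arrays and with each 24 h array left out; filled points had an adjusted p under 0.05 and the number above a point is its adjusted p. Ldha dropped to 0.28 without serum replicate 1 and reached 1.77 without serum replicate 2, while Adm stayed between 0.89 and 1.22.

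Cell markers and background differed between OA and serum mice at 24 h. Both serum arrays were on slide 1 and no OA array of that time was, so treatment and slide cannot be told apart. In each pair of serum values below, the first is that of replicate 1, one of the arrays that stood apart. The monocyte list, 10 of 10 genes measured, had mean levels of 3.97, 4.28 and 4.02 in OA mice, against 1.19 and 2.55 in serum mice, and 6 of its genes were called higher. The B cell list, 7 of 7 measured, had 4.68, 4.85 and 5.03 in OA mice, against 2.89 and 4.35 in serum mice, and 4 genes were called. Genes of lung epithelium and vessels, 3 of 6 measured, had list means of -2.25, -2.23 and -1.99 in OA mice, against 2.33 and 1.99 in serum mice, and 2 of the 3 were called lower. The mean log2 signal of probes for long intergenic RNA regions, a measure of weak signal, minus that of probes detected on all arrays averaged -5.91 in OA mice and -4.12 in serum mice (-3.48 and -4.76). The part of these differences in the 3 calls was not tested.

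For Slc2a1 and Pgk1 no difference at any time passed the test. Slc2a1, the transporter through which glucose enters, had levels of 1.41, 1.59 and 1.5 in OA mice at 24 h, against 0.49 and 0.89 in serum mice. The groups did not overlap, and the difference was 0.81 ± 0.40 (SE, adjusted p = 0.118 in limma). At 4 h it had 0.33 and 0.12 in OA mice, against 1.68 in the serum mouse, its lowest group mean of all 12. That difference of -1.46 ± 0.54 (SE) had an unadjusted p of 0.0132 and an adjusted p of 0.450. Ldha was also lower at 4 h, with 6.21 and 5.48 in OA mice, against 6.92 in the serum mouse, a difference of -1.07 ± 0.50 (SE, adjusted p = 0.456). At 4 h 2 of 10 members had an unadjusted p under 0.05, against 10.9% of all genes, and the neutrophil list was below 0 for 11 of 11 genes, with a median difference of -1.42. The monocyte list was below 0 for 10 of 10 genes (median -1.10) and the B cell list for 7 of 7 (median -0.91), while the red cell list was above 0 for 9 of 10 (median 1.48). The list of lung epithelium and vessels was above 0 for 0 of 3 measured genes (median -2.61). Its means were -0.63 and -0.79 in OA mice, against 1.33 in the serum mouse. The signal of long intergenic RNA probes, taken as for 24 h, averaged -4.42 in OA mice and was -5.70 in the serum mouse. The part of these differences in the 4 h values was not tested.

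Hk2 had its next largest difference at 3 h. It had -1.31, -2.99 and -1.56 in OA mice, against -2.86 and -3.88 in serum mice, where it was not well above background. The lowest OA mouse fell between the serum mice, and the difference was 1.42 ± 0.56 (SE, unadjusted p = 0.0185, adjusted p = 0.627). With serum at its bound Hk2 was 1.12-fold higher in OA. That fold is not a minimum, as the lowest OA array was itself not well above background. Averaged over the 6 times, Hk2 had the largest OA minus serum difference of the 10 genes, 0.67 ± 0.23 (SE, unadjusted p = 0.00916, adjusted p = 0.302), and Adm had 0.34 ± 0.16 (SE, adjusted p = 0.339). Of the 10 genes, 2 had an unadjusted p under 0.05 in that average, against 14.6% of all genes, and none was called, against 0.00398%. The 10 mean differences ran from 0.07 to 0.67, with an all-gene median of -0.06. Their common sign depended on probe and processing. The other 2 Ldha probes had means of -0.17 and -0.26, and the lowest value over the processing alternatives was below 0 for 7 genes, at -0.16 for Adm, -0.12 for Vegfa, -0.11 for P4ha1, -0.092 for Ldha, -0.072 for Egln3, -0.039 for Pgk1 and -0.0033 for Bnip3.

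The level given for Pgk1, the enzyme of the first glycolytic step that yields ATP, cannot be assigned to Pgk1 alone. RefSeq places the gene on the X chromosome, whereas the files place its only probe at chr3:57906830-57906894 in mm9. A second probe, named Gm5537, lies at chr3:57906829-57906888, sharing 59 bases with it. The 2 probes correlated over the 30 arrays at r = 0.970, and Gm5537 was the gene with a symbol most like Pgk1 of the 15881 compared. At 24 h the probe named Pgk1 had levels of 4.67, 4.79 and 4.44 in OA mice, against 3.00 and 4.62 in serum mice, which overlap. The difference was 0.83 ± 0.45 (SE) for the probe named Pgk1 and 0.80 ± 0.42 (SE) for the one named Gm5537, with adjusted p values of 0.149 and 0.142 in limma.

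**Figure D4:**
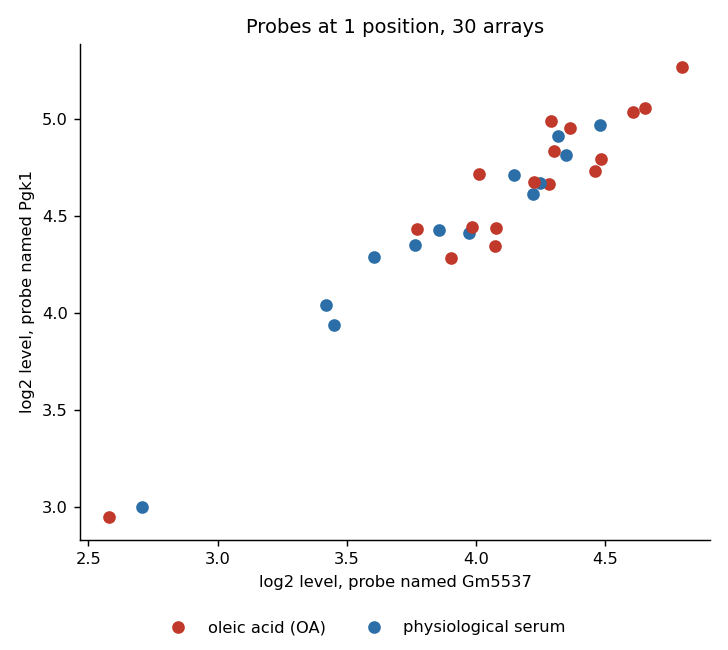
Log2 level of the probe named Pgk1 against that of the probe named Gm5537 on each of the 30 arrays, OA in red and serum in blue. The points lie close to a line (r = 0.970), and the 2 lowest are OA 4 h replicate 2 and serum 24 h replicate 1.

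Neither secreted factor had a difference past the test before 24 h. Vegfa had -1.83, -1.68 and -1.60 in OA mice at 1 h, against -3.58, -3.35 and -1.54 in serum mice. One serum mouse was above all OA mice, and the difference of 1.12 ± 0.59 (SE) had an adjusted p of 0.822. At 3 h the OA mice had -1.58, -2.20 and -0.88, all well above background, against -3.09 and -2.34 in serum mice, neither of them well above background. These groups did not overlap, and the difference was 1.16 ± 0.66 (SE, adjusted p = 0.670), at least 1.48-fold with serum at its bound. At 24 h the OA mice had -4.82, -2.61 and -2.88, against -2.72 and -3.50 in serum mice. Adm at 3 h had -2.29, -2.93 and -2.89 in OA mice, against -4.04 and -3.45 in serum mice, a difference of 1.04 ± 0.39 (SE, unadjusted p = 0.0133, adjusted p = 0.627).

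Among the remaining targets, Ndrg1, which responds to several kinds of stress, had the largest positive difference before 24 h. At 1.5 h it had 4.00, 5.46 and 4.21 in OA mice, against 3.66, 3.11 and 2.57 in serum mice. All OA mice were above all serum mice, and the difference was 1.45 ± 0.58 (SE, unadjusted p = 0.0199, adjusted p = 0.477). At that time 1 of 10 members had an unadjusted p under 0.05, against 9.97% of all genes. The platelet list, 10 of 10 measured, averaged 5.70, 7.39 and 5.98 in the same OA mice, against 5.10, 4.58 and 3.80 in the serum mice. Its median difference was 1.89, with 10 of 10 genes above 0, and its part in the Ndrg1 difference was not tested. At 3 h Ndrg1 had 4.72, 4.98 and 5.26 in OA mice, against 3.86 and 4.01 in serum mice, and the platelet list had a median difference of 1.18.

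P4ha1, which hydroxylates collagen prolines, had values below those of serum at 1 h that did not pass the test. It had -2.73, -2.65 and -2.84 in OA mice, against -1.33, -2.25 and -1.87 in serum mice. The groups did not overlap, but only 1 OA array and 2 serum arrays were well above background. The difference was -0.93 ± 0.34 (SE, unadjusted p = 0.0115, adjusted p = 0.822), the only member with an unadjusted p under 0.05 at 1 h, where 5.4% of all genes had one. At 3 h its sign was the opposite, with -1.84, -2.02 and -1.52 in OA mice, against -2.95 and -2.23 in serum mice, a difference of 0.80 ± 0.37 (SE, adjusted p = 0.635). With serum at its bound it was 1.25-fold higher in OA at 3 h. That fold is not a minimum, as only 2 of the 3 OA arrays were well above background. The OA effect differed between times for P4ha1 and Slc2a1 at an unadjusted p of 0.0476 and 0.0339 in the F test, with adjusted p values of 0.296 and 0.279.

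Bnip3, the mitophagy receptor, and Egln3, the hydroxylase that HIF induces, had no difference with an unadjusted p under 0.05 at a single time. The Bnip3 differences ran from -0.98 at 4 h to 0.67 at 24 h, with standard errors of 0.40 to 0.59. At 24 h it had 1.5, 2.41 and 2.21 in OA mice, against 0.89 and 1.86 in serum mice. Egln3 differences ran from -0.60 at 4 h to 1.16 at 1.5 h, with standard errors of 0.69 to 1.04, the widest of the 10 genes. Its levels at 1.5 h were -0.26, -1.14 and -0.60 in OA mice, against -2.17, -2.43 and -0.89 in serum mice.

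At 3 h 3 members had an unadjusted p under 0.05, Hk2, Adm and P4ha1, against 7.76% of all genes. At 18 h 0 of 10 did, against 0.985%, and at 24 h the 3 called genes did, against 46.1%. Groups were also compared by whether they overlapped. Every OA mouse was above every serum mouse for 3 members after 1.5 h, 6 after 3 h, 4 after 24 h and none after 1 or 18 h. Over all genes the shares were 16.6%, 16.4%, 25.8%, 2.89% and 2.69% in the same order. Every OA mouse was below every serum mouse for 1 member at 1 h and for none at 1.5, 3, 18 and 24 h, against 9.1%, 7.51%, 14.1%, 4.26% and 30.1% of all genes. At 4 h, with 1 serum mouse, both OA mice were below it for 5 members, Hk2, Slc2a1, Ldha, Pgk1 and Bnip3, against 39.9% of all genes. Both were above it for 1 member, Vegfa, against 31.2%. The 6 members at 3 h were Vegfa, Adm, Ndrg1, P4ha1, Pgk1 and Egln3.

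The design also allows later animals, at 18 and 24 h, to be set against those at 1 to 4 h within each treatment. In OA mice Vegfa averaged -3.36 at 18 and 24 h, against -2.12 at 1 to 4 h, the largest such difference of the 10 genes at -1.23 ± 0.37 (SE, unadjusted p = 0.00302, adjusted p = 0.164). The Vegfa probe was well above background on no OA array at 4 or 18 h and on 1 of 3 at 24 h. The size of its drop is therefore uncertain. Hk2 averaged -0.91 at 18 and 24 h, against -1.57 at 1 to 4 h, with a difference of 0.66 ± 0.31 (SE, adjusted p = 0.319), and Adm had a difference of -0.48 ± 0.22 (SE, adjusted p = 0.301). In serum mice Bnip3, Ldha, Adm and Slc2a1 were lower later, by -0.65, -0.64, -0.64 and -0.60 (adjusted p = 0.474, 0.380, 0.408 and 0.464). With 1 array left out the differences ran from -0.89 to -0.41, -1.01 to -0.27, -0.79 to -0.49 and -0.73 to -0.48 in that order. Over the processing alternatives that of Adm ran from -1.04 to -0.11. Adm was not well above background on any serum array at 18 or 24 h. In all, 3 of 10 members in OA and 4 of 10 in serum had an unadjusted p under 0.05, against 15.3% and 10% of all genes. No member was called, against 0.163% and 0.155%. For the change of the OA effect between late and early times no member had an unadjusted p under 0.05, against 14.4% of all genes, and 0% of all genes were called. In serum mice the neutrophil list was lower later for 11 of 11 genes, with a median difference of -1.24, and in OA mice for 10 of 11, with a median of -0.37. In serum mice the monocyte list was also lower later for 8 of 10 genes (median -0.77, 1 called), and the red cell list was higher for 10 of 10 (median 0.72). The part of these lists in the member differences was not tested.

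Across the 6 times as a whole, the OA groups differed at an unadjusted p under 0.05 in the F test for 6 members, Slc2a1, Hk2, Vegfa, P4ha1, Bnip3 and Adm, against 18.3% of all genes. The smallest was that of Slc2a1 (adjusted p = 0.088 in limma). Its mean in OA mice was 0.22 at 4 h and 2.29 at 3 h. The serum groups did so for Adm (adjusted p = 0.167 in limma) and Hk2 (adjusted p = 0.234 in limma). That is 2 of 10 members, against 13% of all genes. Both had their lowest mean in serum mice at 3 h, -3.74 for Adm and -3.37 for Hk2, where neither probe was well above background on any array. The OA effect differed between times for 2 of 10, against 16.7%. No member was called in these 3 tests, against 0.171%, 0.0596% and 0.00795% of all genes. One alternative or left-out array in each of the 3 gained 1 member call.

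The rest of the pathway was read from 3 lists, the HIF system (8 genes), glucose entry, glycolysis and lactate (18) and further HIF targets (16), of which 39 of 42 genes were measured. At 24 h 5 were called, all higher in OA, and none was called at the other times. In the HIF system these were Hif1a, the oxygen-regulated subunit, at 1.16 ± 0.44 (SE, adjusted p = 0.0495) and its partner Arnt at 1.31 ± 0.38 (SE, adjusted p = 0.0227). In glycolysis they were Gpi1, glucose-6-phosphate isomerase, at 1.13 ± 0.39 (SE, adjusted p = 0.0363) and Pgam1, phosphoglycerate mutase, at 1.21 ± 0.35 (SE, adjusted p = 0.0227). Higd1a, a mitochondrial protein induced by hypoxia, was called among the further targets at 1.39 ± 0.42 (SE, adjusted p = 0.0252). Without serum 24 h replicate 1 none of the 39 was called, and the same held without OA 24 h replicate 1 or 2 and with slide as a fixed block. The share, 5 of 39, is near the 13.1% of all genes called higher in OA.

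As a description, 16 of 18 glycolysis genes lay above 0 at 24 h, against 49.3% of all genes, and 0 of 18 at 4 h, against 44.4%. Both counts moved with 1 array. Without serum 24 h replicate 1, 7 of 18 lay above 0 at 24 h, with a median of -0.058 against 0.66 with all arrays. Without OA 4 h replicate 2, 3 of 18 lay above 0 at 4 h, with a median of -0.23 against -0.83, and the comparison then rested on 1 array a group. The counts also rest on the scaling. Scaling to the median of probes detected on every array moved the all-gene median from -0.03 to -0.58 at 24 h. At 4 h it moved that median from -0.16 to 0.40. The 18 glycolysis genes were not counted under that scaling. At 4 h the 3 with the smallest p values were Slc16a3, the lactate exporter, at -2.60 ± 0.95 (SE), Pgam1 at -1.15 ± 0.47 (SE) and Gapdh, glyceraldehyde-3-phosphate dehydrogenase, at -1.21 ± 0.54 (SE), with adjusted p values of 0.445, 0.450 and 0.456. Slc16a3 had 1.57 and 2.47 in OA mice at 4 h, against 4.62 in the serum mouse. Its serum mice at 18 and 24 h were also lower than those at 1 to 4 h, by -1.98 ± 0.48 (SE, adjusted p = 0.106), the smallest adjusted p of the 3 lists in that comparison. In the HIF system 8 of 8 genes lay below 0 at 4 h, with the smallest p for Hif1an, the asparagine hydroxylase that restrains HIF, at -1.71 ± 0.53 (SE, adjusted p = 0.416).

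Several members tracked the markers of 1 or more cell types across the arrays. Of the 70 relations between a member and a marker list, Ndrg1 with the platelet list was the closest (Pearson r = 0.978, Spearman rho = 0.976, n = 30 arrays). Permutation gave p = 1e-05 for both, the smallest that 100000 permutations can give, with Benjamini-Hochberg values of 8.75e-05 and 0.00014. The relation was 0.973 without the 2 arrays farthest from the platelet median, 0.984 with group means removed, and 0.960 to 0.983 within the 2 slides that hold at least 6 arrays. Of 15881 genes, those most like Ndrg1 were Mapk6 (r = 0.975) and Cavin2 (r = 0.975).

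Bnip3 followed the neutrophil list (r = 0.843, rho = 0.873), as did Vegfa (r = 0.807, rho = 0.785), Slc2a1 (r = 0.729, rho = 0.752) and Egln3 (r = 0.712, rho = 0.710). For Bnip3 it was 0.847 without the 2 farthest arrays and 0.810 to 0.912 within slides, and for Vegfa 0.750 and 0.509 to 0.898. All 4 had a permutation p of 1e-05 for r, adjusted to 8.75e-05. For Slc2a1 the neutrophil relation was 0.782 without the 2 farthest arrays, 0.508 with group means removed and 0.668 to 0.865 within slides. Its relation with the monocyte list (r = 0.699, rho = 0.573, permutation p adjusted to 0.000233 and 0.00738) was 0.528 without the 2 farthest arrays and 0.944 to 0.965 within slides. Bnip3 also followed the monocyte list (r = 0.673, rho = 0.428, permutation p adjusted to 0.000642 and 0.0625). That relation was 0.393 without the 2 farthest arrays and 0.834 to 0.961 within slides. Each of the 2 slides used holds 1 of the arrays farthest from the monocyte median, serum 24 h replicate 1 and OA 4 h replicate 2. The monocyte values within slides therefore still include these arrays. Slc2a1 and Bnip3 were also related to the B cell list (r = 0.603 and 0.565, permutation p adjusted to 0.003 and 0.00595). By rho that relation passed for Bnip3 (0.469, adjusted 0.0464) and not for Slc2a1 (0.386, adjusted 0.0984). Without the 2 arrays farthest from the B cell median r was 0.377 for Slc2a1 and 0.251 for Bnip3. The closest gene was Tyrobp for Bnip3 (r = 0.956), Ptgs2 for Vegfa (r = 0.892), Rab11fip5 for Slc2a1 (r = 0.924) and Marcksl1 for Egln3 (r = 0.825). Hk2 followed the B cell list (r = 0.80, rho = 0.745, permutation p = 1e-05, adjusted 8.75e-05), at 0.754 without the 2 farthest arrays and 0.553 with group means removed. It was also related to the monocyte and NK cell lists (r = 0.662 and 0.467, permutation p adjusted to 0.00063 and 0.0283). By rho the monocyte relation passed (0.560, adjusted 0.00951) and the NK cell relation did not (0.442, adjusted 0.0552). With group means removed the monocyte relation of Hk2 was 0.639, and that with the red cell list was -0.668. The closest gene to Hk2 was Bcar3 (r = 0.891).

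Ldha and the probe named Pgk1 followed the monocyte list, at r = 0.825 and 0.860 (permutation p = 1e-05 each, adjusted 8.75e-05), but only at 0.591 and 0.636 without the 2 arrays farthest from the monocyte median. For both, every list except that of NK cells passed the threshold for r, with negative values for the red cell list (-0.521 and -0.488). By rho the neutrophil list (permutation p adjusted to 0.175 and 0.113) and the B cell list (0.188 and 0.445) did not pass. The red cell list for Ldha (0.0502) and the T cell list for Pgk1 (0.142) did not pass either. Without the 2 arrays farthest from its median, the B cell list had r = 0.145 and 0.066, and the T cell list 0.404 and 0.200. The platelet list had r = 0.552 and 0.611, and the T cell list 0.684 and 0.595. With group means removed, Ldha had 0.799 with the T cell list and 0.752 with the monocyte list. Ldha and Pgk1 were also the closest pair among the members, at r = 0.891 over 30 arrays, followed by Slc2a1 and Bnip3 at 0.795. P4ha1 had no relation past the threshold. Its strongest was negative, with the neutrophil list (r = -0.414, rho = -0.442, permutation p = 0.0225 and 0.015, adjusted 0.0544 and 0.0552), and was -0.378 without the 2 farthest arrays, -0.102 with group means removed and -0.417 to 0.045 within slides, while the highest positive one was r = 0.280 with the NK cell list (adjusted p = 0.220). Its closest gene was Nr1h3 at r = 0.561. Adm also stood largely by itself, with r = 0.462 for the monocyte list (permutation p adjusted to 0.028). By rho that relation did not pass (0.379, adjusted 0.104), and Ifih1 was the closest gene to Adm at r = 0.693. The points share their libraries and scaling. The permutations shuffled all 30 arrays without regard to group or slide, so their p values treat the arrays as exchangeable.

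**Figure D5:**
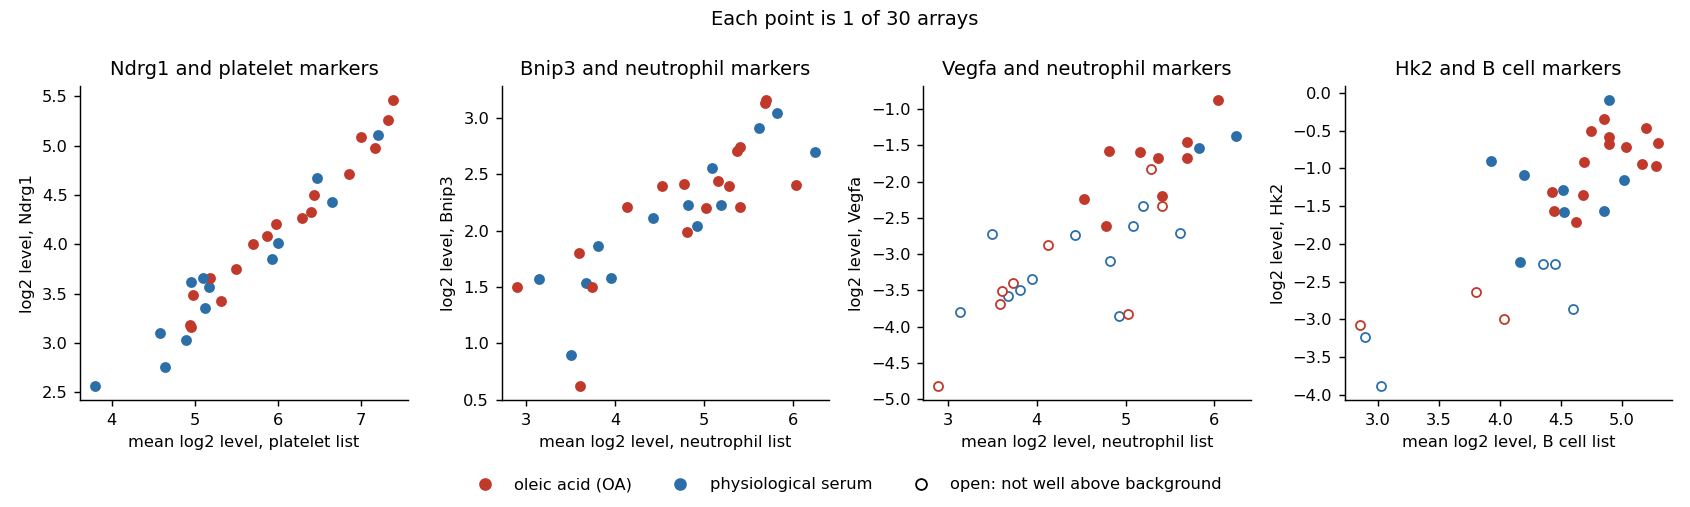
Log2 level of Ndrg1, Bnip3, Vegfa and Hk2 against the mean log2 level of a marker list on each of 30 arrays; OA in red, serum in blue, open points not well above background. Ndrg1 lies along a narrow line with platelet markers (r = 0.978) in OA and serum mice alike, while the other 3 scatter more widely (r = 0.80 to 0.843).

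Probes of the same gene did not always give the same answer. The Ldha probe used here, at chr7:54110937-54110996 in mm9, gave 1.02 at 24 h, whereas its other 2 probes gave 0.29 and 0.20, and neither of those was called. All 3 Ldha probes were below 0 at 4 h, at -1.07, -1.34 and -1.32. The second Vegfa probe gave -1.94 at 24 h, against -0.33 for the one used, and both were above 0 at 1, 1.5 and 3 h. The second Egln3 probe gave -1.52 at 24 h, against -0.51. For Bnip3 the 2 kept probes differed at 3 h, with 0.66 for the second and -0.03 for the one used, and had the same sign at the other 5 times.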

How the data were processed

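Total RNA was labelled in 1 colour and hybridised to Agilent mouse arrays. Per the file headers, Feature Extraction 10.5.1.1 made the deposited intensity values. The processed intensity used here is background-corrected within each array by that software. The deposited table of the authors' processed log2 values was used only as an alternative, with its background correction and scaling unknown.

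Control spots and outlier-marked spots were left out, and each array's 75th percentile was subtracted from the log2 signal. Probes well above background on at least 3 of 30 arrays were kept (35800 of 55681), and where several remained for 1 gene, that of highest mean level stood for it. Groups were tested with limma 3.58.1 in R 4.3.3 (18 residual degrees of freedom, median residual SD 0.596), with Benjamini-Hochberg adjustment. The fit was tested on simulated data. For "at least" folds and other folds at a bound, the dim group is set, per array, at its own signal or at the weakest signal any well-detected probe reached, whichever is higher. The brighter group keeps its own signals. Marker relations were tested by permutation over all arrays, not within groups or slides.

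The genes and lists were chosen with earlier results of these data known. All members are named. A single-time difference is printed with its error where its unadjusted p was under 0.05; those of Slc2a1 and Pgk1 at 24 h and of Vegfa at 1 and 3 h are also given, chosen after their values were seen. From each list, called genes or up to 3 with the smallest p are named. Likeness is Pearson's r over 30 arrays, and up to 2 closest genes were taken per member. Alternatives covered background correction, scaling, filter, probe choice, slide, replicate number, the authors' values and arrays left out. Replicate numbers were not taken as pairs in the main fit. The correlations of same-numbered arrays had both signs, and groups of at most 3 arrays cannot settle whether the numbers mark pairs.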

Additional observations from a re-analysis of the deposited data

How the results depend on the processing

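No member was called at 1, 1.5, 3, 4 or 18 h under the alternatives run. At 24 h Hk2 was past the threshold in 8 of 13 processing alternatives, Ldha in 3 of 13 and Adm in 5 of 12, and with 1 of the 5 arrays of 24 h left out in 2, 1 and 0 cases. With arrays of other times left out the calls held in 25, 17 and 23 of 25 cases. Over all of these the adjusted p values were 0.00843 to 0.512, 0.00232 to 0.817 and 0.00592 to 0.496. The 1 reversal of a called member value was Adm at 24 h under normexp, at -0.21. Dim probes limit Vegfa, Adm and Egln3, and 1 serum array limits 4 h. The causes of the shifts were not tested.

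Members called at 24 h were 0 with slide as a fixed block, without the slide of OA arrays only, without the 3 arrays of lowest correlation and with only the 2 groups compared, and 1 with scaling to the median of probes detected on every array (the median scaling), against 3. Genes called at 24 h were then 9, 8, 47 and 2846 for the first 4 of these, 13124 without a filter and 4008 with the stricter filter. The members' median at 24 h was 0.36 with normexp, 0.19 with the median scaling and 0.23 without the 3 arrays. At 3 h it was 0.11 with normexp, 0.39 with the authors' values and 0.44 within slide 1. At 4 h it was -0.038 with the median scaling, -0.082 without the 3 arrays and -1.33 within slide 3. The only OA array of that time on slide 3 was OA 4 h replicate 2.

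Counts over all genes also moved. At 4 h 1 gene was called with quantile normalization, 2 with the slide block and 5 with the authors' values, and at 1 h 16 without the OA slide. For the mean of 6 times the counts were 2 with normexp, 2 without a filter, 0 with the stricter filter and 3 with the authors' values. For the change of the OA effect they were 4 with quantile normalization and 4 with the authors' values. For serum late against early they were 12 with normexp, 136 with quantile, 130 with the median scaling, 9 without a filter, 74 with the stricter filter, 21 with the slide block, 282 with the authors' values, 1 without the OA slide and 7 without the 3 arrays. For OA late against early they were 157 with the median scaling, 62 with the stricter filter, 21 with the slide block, 162 with the authors' values and 2 without the OA slide. In the F test of the OA effect the order normexp, quantile, median scaling, stricter filter, slide block, authors' values, OA slide left out and 3 arrays left out gave 0, 12, 1, 0, 4, 13, 4 and 1. In that of serum, normexp, quantile, median scaling, no filter, mean of probes, authors' values and OA slide left out gave 5, 83, 59, 9, 9, 154 and 1. In that of OA, normexp, quantile, median scaling, no filter, slide block, authors' values, OA slide left out and 3 arrays left out gave 28, 144, 112, 11, 0, 308, 13 and 23.

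Whether the replicate numbers pair the arrays was not settled, with correlations of same-numbered arrays between -0.54 and 0.42. With the replicate block 1 member was called at 24 h, and 2 genes for the mean of 6 times, 25 for serum late against early and 10 in the F test of OA were called.

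Leaving out 1 array at a time gave 38 to 12952 genes, 0 to 3 members and a members' median of 0.23 to 1.02 at 24 h. The median was 0.10 to 0.62 at 1 h, 0.23 to 0.41 at 1.5 h, -1.33 to -0.082 at 4 h and -0.17 to 0.53 at 18 h. Genes called were 0 to 1 at 1.5 h, 0 to 1 at 3 h, 0 to 4 at 4 h, 0 to 3 at 18 h, 0 to 6 for the mean, 0 to 1207 for the change of the OA effect, 1 to 1937 for serum and 8 to 170 for OA late against early. One member was called in the F test of serum with quantile normalization, in that of OA with the authors' values and in that of the OA effect without serum 24 h replicate 2. The F tests gave 0 to 2135 genes for the OA effect, 5 to 592 for serum and 4 to 165 for OA.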
